A study of Mus musculus with 6 samples.

Results

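The clathrin endocytosis machinery was taken as 33 genes chosen by symbol: the chains of the coat, the 5 genes of the AP2 adaptor, the scaffolds that start a pit, adaptors for cargo, proteins of scission and uncoating, and 2 tethers of early endosomes. All 33 were found among the 23337 genes of the deposited table. The study compared endothelial cells of the spleen, sorted as CD31+ CD45- after collagenase digestion, from wild-type C57BL/6 mice and from Stab1-/- mice of the same strain, with 3 libraries of each. Stab1 encodes stabilin-1 (Clever-1), a scavenger and adhesion receptor of sinusoidal endothelium. The labels call the cells blood endothelial cells and give neither age nor sex, nor how the allele was made, nor whether a library came from 1 animal or from a pool. The p-values therefore measure the spread between these libraries, which may be partly technical.

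Clathrin-mediated endocytosis brings receptors and their ligands into the cell in coated vesicles. AP2 binds the phosphoinositide PI(4,5)P2 and sorting signals in receptor tails and recruits clathrin, whose heavy chains form the cage and whose light chains regulate it. Dynamin cuts the neck of the pit, auxilin-type proteins and Hsc70 remove the coat, and the vesicle then fuses with early endosomes with the help of Rab5 effectors. Endothelial cells of the spleen sinusoids are known as scavenger cells.

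Libraries are named by genotype and by the number in their column, WT 1, WT 3 and WT 4 and KO 2, KO 3 and KO 4. Values are RPKM, reads scaled to the length of the gene model and the depth of the library. Recovered reads per library ranged from 40274424 to 51498038. Stab1 was at 21.6, 43.6 and 31.4 RPKM in wild type and at 2.32, 2.62 and 2.49 in knockout, a log2 fold change of -3.40 ± 0.22 (SE; limma, adjusted p = 7.15e-05). Pecam1, an endothelial gene, ranged from 273 to 326.5 RPKM in wild type and from 329 to 360 in knockout, without overlap. Its log2 fold change was 0.23 (limma, adjusted p = 0.29). Sums of 16 endothelial markers overlapped, at 2905 to 3529 RPKM in wild type and 3175 to 3612 in knockout. Of the 15 tested, 9 had positive and 6 negative log2 fold changes, from -1.69 to 0.38. In knockout 1 was lower at a limma adjusted p under 0.05. Ptprc (CD45), the antigen of the negative gate, peaked at 0.110 RPKM. Marker sums of some other cell types did not overlap between genotypes. The 14 megakaryocyte and platelet genes summed to 102 to 285 RPKM in wild type and 70.0 to 88.6 in knockout, with 13 of 14 at 1 RPKM or more in at least 3 libraries. The 14 reticular and fibroblast genes summed to 112 to 303 and 73.2 to 109, with 11 of 14. The erythroid sum was 36.4 to 127.5 and 19.9 to 94.0 RPKM (5 of 14 genes, Hba-a1 and Hba-a2 at 0), and the macrophage sum 21.3 to 36.3 and 26.0 to 30.5 RPKM (4 of 15 genes, Siglec1 at 0), both with overlap. Of 13 lymphocyte genes none reached that level. The 9 neuronal genes summed to 32.3 to 32.8 and 25.5 to 30.8 RPKM, with the synaptic genes Snap25 and Syt1 at 0.213 RPKM or less. Of the 5 neuronal genes tested, 1 had a positive and 4 a negative log2 fold change. The positive one was the synaptic gene Syp, at 7.72 to 12.2 RPKM in wild type and 10.9 to 13.2 in knockout (0.23). Tubb3 was lower in every knockout library than in any wild-type library (log2 fold change -0.70, limma adjusted p = 0.0637). With GC and length trends removed it was called (-0.77, limma adjusted p = 0.0268). Stmn2, the most abundant of the list, overlapped (-0.35). Whether these other cells had a part in the members' differences was not tested, and in bulk RNA fewer cells of a type and less RNA per cell cannot be told apart.

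The sequence upstream of 4 members is shown because the results turn on them: Itsn1 and its paralogue Itsn2 differed most in their balance between genotypes, and Eea1 and Fcho2 had the smallest p-values. Each run is the part of the 250 bases before the RefSeq start (GRCm38.p6, 5′ to 3′ on the gene's strand) that no annotated exon covers. The Itsn2 and Fcho2 runs lie inside the annotated span of their gene, since the start used is an internal one. Capitals mark a CCAAT box (CCAAT) or a GC box (GGGCGG) on either strand. The Itsn1 run is chr16:91729121-91729280 on the plus strand, the Itsn2 run chr12:4592932-4593007 on the plus strand, the Eea1 run chr10:95940413-95940649 on the plus strand and the Fcho2 run chr13:98815450-98815699 on the minus strand.
Itsn1: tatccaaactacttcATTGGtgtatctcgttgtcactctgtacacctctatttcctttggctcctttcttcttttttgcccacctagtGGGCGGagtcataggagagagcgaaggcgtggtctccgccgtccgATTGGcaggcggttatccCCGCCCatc
Itsn2: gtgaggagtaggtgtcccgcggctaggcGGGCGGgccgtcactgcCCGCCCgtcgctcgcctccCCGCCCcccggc
Eea1: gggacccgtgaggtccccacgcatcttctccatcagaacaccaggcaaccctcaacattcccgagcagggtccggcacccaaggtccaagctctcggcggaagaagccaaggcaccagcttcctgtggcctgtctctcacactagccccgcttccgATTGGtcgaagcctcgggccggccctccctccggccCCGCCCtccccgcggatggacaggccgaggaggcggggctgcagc
Fcho2: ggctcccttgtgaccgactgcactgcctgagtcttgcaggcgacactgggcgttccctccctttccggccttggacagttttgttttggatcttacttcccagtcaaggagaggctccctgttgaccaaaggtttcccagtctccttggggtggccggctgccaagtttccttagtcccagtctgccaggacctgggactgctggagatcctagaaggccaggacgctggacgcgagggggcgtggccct
The Itsn1 run held 2 CCAAT boxes and 2 GC boxes, the Itsn2 run 3 GC boxes and no CCAAT box, the Eea1 run 1 of each, and the Fcho2 run neither. With the exonic bases included, the 250 bases held 5 GC boxes for Itsn1, 3 for Itsn2, 2 for Eea1 and 0 for Fcho2. The CCAAT counts were the same as in the runs. Over the full 250 bases, RefSeq gave a promoter for 30 of the 33 members, and Bin1, Necap2 and Rabep1 had no entry. A GC box was found in 18 of these 30 and in 32.9% of all 27025 promoters, and a CCAAT box in 8 of 30 and in 34.5%. CACGTG, an E-box, was found in 4 of 30 and in 6.0%, CCGGAAG, an ETS-type motif, in 3 of 30 and in 7.1%, and the palindromic NRF1 motif in 0 of 30 and in 0.8%. The motifs were searched on both strands and do not contain one another. The median GC content of these 250 bases was 59.2% for members and 52.0% for all promoters, and a match is a description of letters, not a binding site.

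The members were expressed over a wide range in wild-type cells. Their median was 18.5 RPKM, against 11.98 RPKM for all 11035 genes tested, and 4 members exceeded 100 RPKM on average: Clta, Ap2s1, Necap2 and Sh3gl1. A further 20 lay between 10 and 100 RPKM, 8 between 1 and 10, and Aak1, a kinase of the AP2 mu subunit, lay below 1. In the order of wild-type means, 27 of 32 neighbouring pairs had overlapping library values. The 5 steps without overlap came below Ap2s1, Necap2, Sh3gl1, Necap1 and Itsn1. Aak1 was too low for the test, which required 1 RPKM in at least 3 libraries, at 0.340, 0.470 and 0.495 RPKM in wild type and 0.380, 0.586 and 0.449 in knockout (274 to 576 reads).

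**Figure D1:**
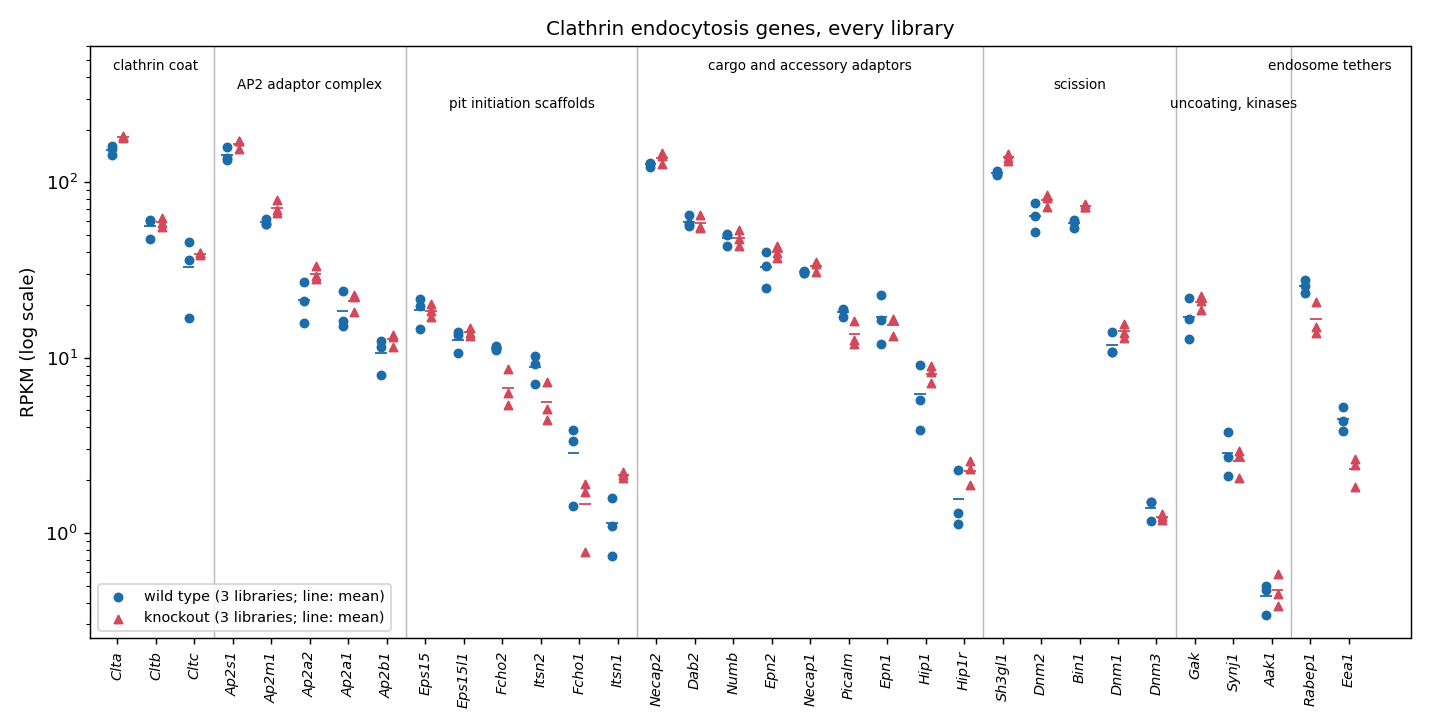
RPKM of the 33 members (log axis), grouped by role and ordered by wild-type mean within each role. Circles are the 3 wild-type libraries, triangles the 3 knockout libraries and short lines the group means; Clta and Ap2s1 stand at the top and Aak1, below 1 RPKM in every library, at the bottom.

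Loss of Stab1 was set against the expression of these genes in a limma fit on log2(RPKM + 0.5) over all genes tested. At a Benjamini-Hochberg adjusted p under 0.05, 0 of the 32 members tested were called, where 1.94% of all genes were. At an unadjusted p under 0.05 there were 12 members, 7 higher and 5 lower in knockout, against 15.7% of all genes. The groups did not overlap for 10 members, 6 higher and 4 lower, against 20.3% of all genes, and 21 of 32 had a positive log2 fold change, against 54.3%. The share at an unadjusted p under 0.05 and the share without overlap were both above those of all genes, as was the share of positive values. The median log2 fold change of the members was 0.18, with 0.03 for all genes. The 95% intervals, which reached a median of 0.36 log2 units to each side, excluded a 2-fold difference in either direction for 25 of 32 members. With limma-voom on the recovered reads 1 member, Eea1, was called, among 222 of 11035 genes. In the authors' deposited table, 1 of 33 members, again Eea1, had an adjusted p under 0.05 (log2 fold change -0.96, adjusted p = 0.0444), among 216 of 13742 genes, and none of the members is in the authors' deposited lists of 34 higher and 117 lower genes.

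**Figure D2:**
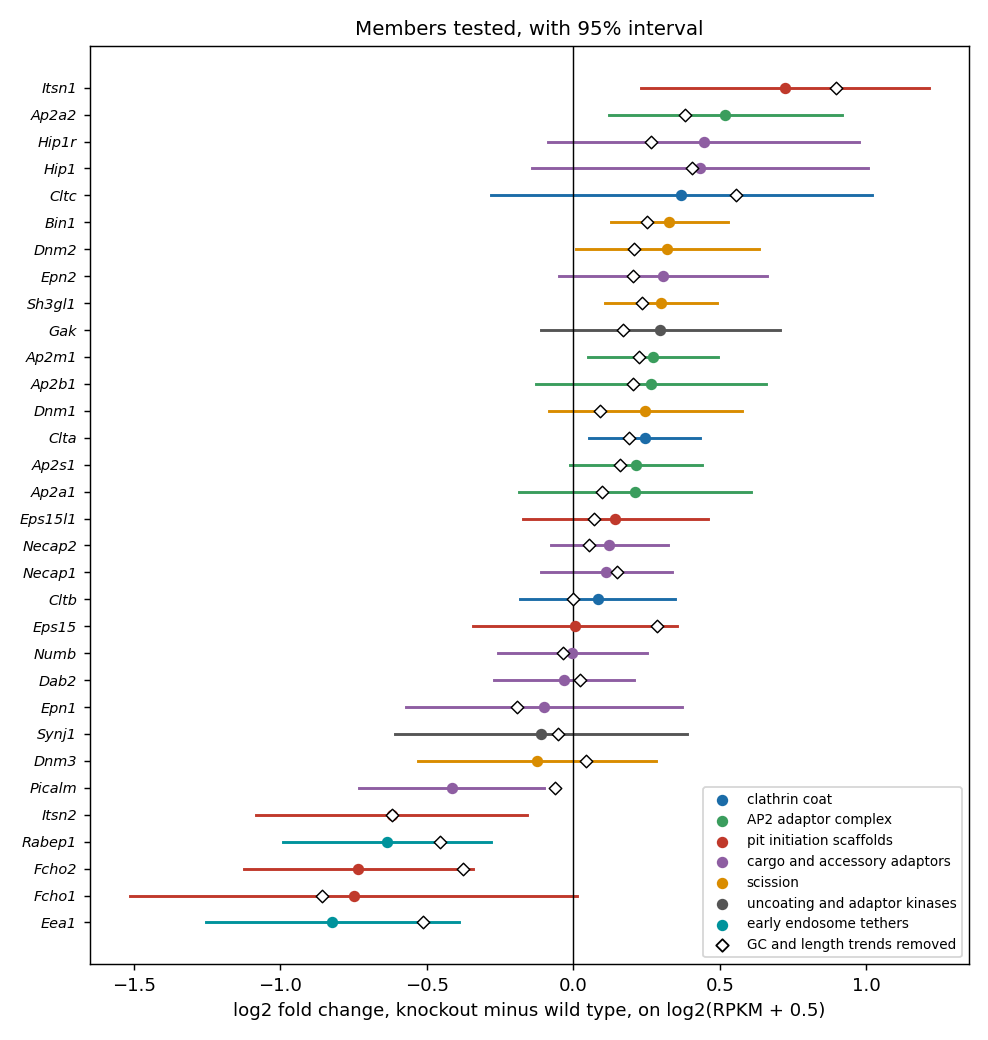
Log2 fold change, knockout minus wild type, for the 32 members tested, with 95% intervals, coloured by role. Open diamonds are the values after trends with transcript GC content and length were removed; Itsn1 lies at the top (0.72) and Eea1 at the bottom (-0.82).

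All 3 clathrin chains had positive log2 fold changes, from 0.08 to 0.37, and none passed the test, with Cltb at -0.00050 once GC and length trends were removed. Clta, the light chain a gene (chr4:44003816-44032846), was the most abundant member at 161, 144 and 155 RPKM in wild type and 184, 179 and 180.4 in knockout. Every knockout library was above every wild-type library, a log2 fold change of 0.24 ± 0.08 (SE, n = 3 a group; limma, adjusted p = 0.213). Cltb, the light chain b gene, overlapped, at 60.9, 47.4 and 60.05 and then 58.8, 62.9 and 55.7 RPKM. Cltc, the heavy chain gene, was at 16.8, 45.7 and 35.9 RPKM in wild type and at 39.4, 38.5 and 39.7 in knockout. The knockout libraries were tightly grouped and WT 1 was far below the other libraries. Its log2 fold change was 0.37 ± 0.29 (SE; limma, adjusted p = 0.555), and -0.05 without WT 1. The summed light chains were 4.18 to 13.2 times the heavy chain in wild type and 5.95 to 6.29 times in knockout (exact two-sided permutation p = 0.9). The 13.2 belonged to WT 1.

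The 5 AP2 genes all had positive log2 fold changes, from 0.21 to 0.52, where 54.3% of all genes had one, and none passed the test. They stayed positive in all 17 alternatives, which reuse the same libraries and are not independent support. Ap2a2, an alpha subunit (chr7:141562180-141633011), was at 15.8, 26.9 and 21.1 RPKM in wild type and at 33.3, 29.1 and 27.9 in knockout, 0.52 ± 0.18 on the log2 scale (SE; limma, adjusted p = 0.204). Ap2m1, the mu subunit that reads tyrosine-based signals (chr16:20535480-20544909), was at 61.8, 57.5 and 58.2 RPKM and then at 78.9, 69.5 and 66.6, a log2 fold change of 0.27 ± 0.10 (SE; limma, adjusted p = 0.23). For both genes the knockout libraries lay above all wild-type libraries. Ap2s1, the sigma subunit and the most abundant AP2 gene, was at 159, 134 and 137 RPKM and then at 172.5, 173 and 154, so KO 4 overlapped WT 1. Ap2a1 and Ap2b1 overlapped between genotypes, with log2 fold changes of 0.21 and 0.27. Without WT 1 the log2 fold changes were 0.090 for Ap2a1, 0.080 for Ap2b1 and 0.33 for Ap2a2. Relative to beta, alpha was 3.25 to 4.09 in wild type and 3.96 to 4.10 in knockout, mu 4.63 to 7.77 and 5.29 to 5.84, and sigma 10.8 to 20.04 and 12.8 to 13.5. All 3 of these ratios overlapped between genotypes (exact two-sided permutation p = 0.3, 1 and 1).

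The scaffolds that start a pit held both the highest and some of the lowest log2 fold changes. Itsn1, intersectin 1, a scaffold and Cdc42 exchange factor (chr16:91729310-91920591), was at 0.737, 1.58 and 1.095 RPKM in wild type and at 2.13, 2.06 and 2.23 in knockout, from 598 to 2056 reads. Every knockout library exceeded every wild-type library, a log2 fold change of 0.72 ± 0.22 (SE; limma, adjusted p = 0.156), which the pseudocount makes smaller at such low levels. With trends in GC content and length removed it was called, at 0.90 ± 0.15 (SE; limma, adjusted p = 0.0235), among 228 of 10940 genes. With the trends kept and WT 1 left out, Itsn1 was at 0.54 (limma, adjusted p = 0.253). Itsn2, intersectin 2 (chr12:4592643-4713952), lay in the other direction, at 7.06, 10.2 and 9.16 RPKM and then 5.12, 4.42 and 7.28. KO 4 was just above WT 1, and the log2 fold change was -0.62 ± 0.21 (SE; limma, adjusted p = 0.193). Fcho2, an F-BAR protein that bends membrane at nascent pits (chr13:98723406-98816577), was at 11.7, 11.2 and 11.1 RPKM in wild type and at 6.30, 5.35 and 8.56 in knockout. All knockout libraries lay below wild type. The log2 fold change was -0.73 ± 0.17 (SE; limma, adjusted p = 0.0739), and -0.37 with GC and length trends removed. Fcho1, its paralogue, was at 3.35, 3.85 and 1.42 RPKM and then at 1.90, 1.70 and 0.778, with wide overlap (108 to 661 reads). Its log2 fold change was -0.75 ± 0.34 (SE; limma, adjusted p = 0.325), -0.86 with GC and length trends removed and 0.02 with library quality weights. Eps15, the most abundant scaffold at 14.6, 21.6 and 19.8 RPKM and then 17.1, 18.4 and 20.1, showed no separation, and neither did Eps15l1, with log2 fold changes of 0.01 and 0.14.

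Among the 9 cargo and accessory adaptors 5 log2 fold changes were positive and 4 negative, from -0.41 to 0.45. Picalm, which sorts small SNAREs into pits (chr7:90130192-90209447), was at 18.9, 17.0 and 18.8 RPKM in wild type and at 12.02, 12.7 and 16.3 in knockout. The groups did not overlap, and the log2 fold change was -0.41 ± 0.14 (SE; limma, adjusted p = 0.203). With GC and length trends removed it was -0.06. Necap2, an AP2-binding protein and the most abundant of the adaptors, was at 122, 128 and 129.5 RPKM and then at 140.4, 146.5 and 127, which overlapped. Dab2, a cargo adaptor that binds clathrin and AP2, and Numb, an adaptor for Notch and integrins, had log2 fold changes close to 0, of -0.03 (95% interval -0.27 to 0.21) and -0.003 (95% interval -0.26 to 0.25). The epsins Epn1 and Epn2, the actin linkers Hip1 and Hip1r, and Necap1 all overlapped, at -0.10, 0.30, 0.43, 0.45 and 0.11. Hip1 and Hip1r were low, at 3.84 to 9.04 and 1.12 to 2.57 RPKM over all libraries.

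In the scission group 4 of 5 log2 fold changes were positive. Sh3gl1, endophilin A2, which senses and makes curvature at the neck of the pit (chr17:56016750-56036659), was at 116, 110.2 and 112 RPKM in wild type and at 146, 138 and 132 in knockout. Bin1, amphiphysin 2, which binds dynamin (chr18:32376618-32435740), was at 60.7, 54.9 and 59.2 RPKM and then at 72.3, 74.8 and 72.4. Both were higher in every knockout library than in any wild-type library. Sh3gl1 differed by 0.30 ± 0.08 on the log2 scale (SE; limma, adjusted p = 0.133), and Bin1 by 0.33 ± 0.09 (SE; limma, adjusted p = 0.117). Dnm2, the widely expressed dynamin, was at 51.9, 75.9 and 64.4 RPKM and then at 81.1, 85.1 and 71.9, with 1 knockout library inside the wild-type range (log2 fold change 0.32 ± 0.14 SE; limma, adjusted p = 0.303). Dnm1, best known from neurons, was expressed at 10.8 to 14.1 RPKM in wild type and 12.9 to 15.5 in knockout, and Dnm3 at 1.17 to 1.51 and 1.19 to 1.27. Both overlapped.

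Gak, the auxilin-related kinase that helps Hsc70 strip the coat, led the uncoating group at 12.7, 21.9 and 16.5 RPKM in wild type and 20.95, 22.3 and 18.6 in knockout, which overlapped. Synj1, the phosphatase synaptojanin 1, ranged from 2.11 to 3.76 RPKM and from 2.05 to 2.93. Neither passed the test, with log2 fold changes of 0.30 and -0.11.

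Both tethers of early endosomes were lower in every knockout library than in any wild-type library. Eea1, early endosome antigen 1, which bridges membranes through Rab5 and PI3P (chr10:95940663-96045518), was at 3.82, 4.33 and 5.24 RPKM in wild type and at 2.65, 1.83 and 2.45 in knockout, from 728 to 1875 reads. Its log2 fold change of -0.82 ± 0.19 (SE; limma, adjusted p = 0.0689) was the lowest of the members and had the smallest p. Rabep1, rabaptin-5, a Rab5 effector (chr11:70844724-70943105), was at 25.5, 23.4 and 27.9 RPKM and then at 14.9, 13.8 and 20.8, a log2 fold change of -0.64 ± 0.16 (SE; limma, adjusted p = 0.0861). Without KO 4, Rabep1 (log2 fold change -0.81, limma adjusted p = 0.0202) and Fcho2 (-0.91, adjusted p = 0.0218) passed the threshold. In that fit 418 of 11035 genes passed it, 348 of them lower in knockout, against 214 with all libraries. With GC and length trends removed the values were -0.51 for Eea1 and -0.45 for Rabep1.

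Ratios of related genes within a library do not depend on depth. Of 11 such pairs, 2 did not overlap between genotypes. Itsn2 was 9.59, 6.47 and 8.37 times Itsn1 in wild type and 2.41, 2.15 and 3.26 times in knockout, so the knockout ratios were all under those of wild type. With 0.5 added to each RPKM as in the fit, the log2 ratio differed by -1.34, smaller in size than the ratios above give. The exact two-sided permutation p was 0.1, the smallest 3 against 3 can give, and 0.55 adjusted over the 11 pairs. With GC and length trends removed the difference was -1.51. RPKM divides by the gene model, for which the values imply 19631 bases for Itsn1 and 6271 for Itsn2. In reads, Itsn2 was 2.07 to 3.06 times Itsn1 in wild type and 0.686 to 1.04 times in knockout. Dnm2 was 44.3, 50.8 and 42.7 times Dnm3 in wild type and 68.2, 66.9 and 58.8 times in knockout. The difference in the log2 ratio, again with 0.5 added to each RPKM, was 0.45 (exact permutation p = 0.1, adjusted 0.55). It was 0.16 with the trends removed. The 9 other pairs overlapped. Clta was 2.58 to 3.03 times Cltb in wild type and 2.85 to 3.24 times in knockout, Ap2a1 0.767 to 0.963 and 0.651 to 0.785 times Ap2a2, and Fcho2 2.92 to 7.81 and 3.14 to 11.01 times Fcho1.

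**Figure D3:**
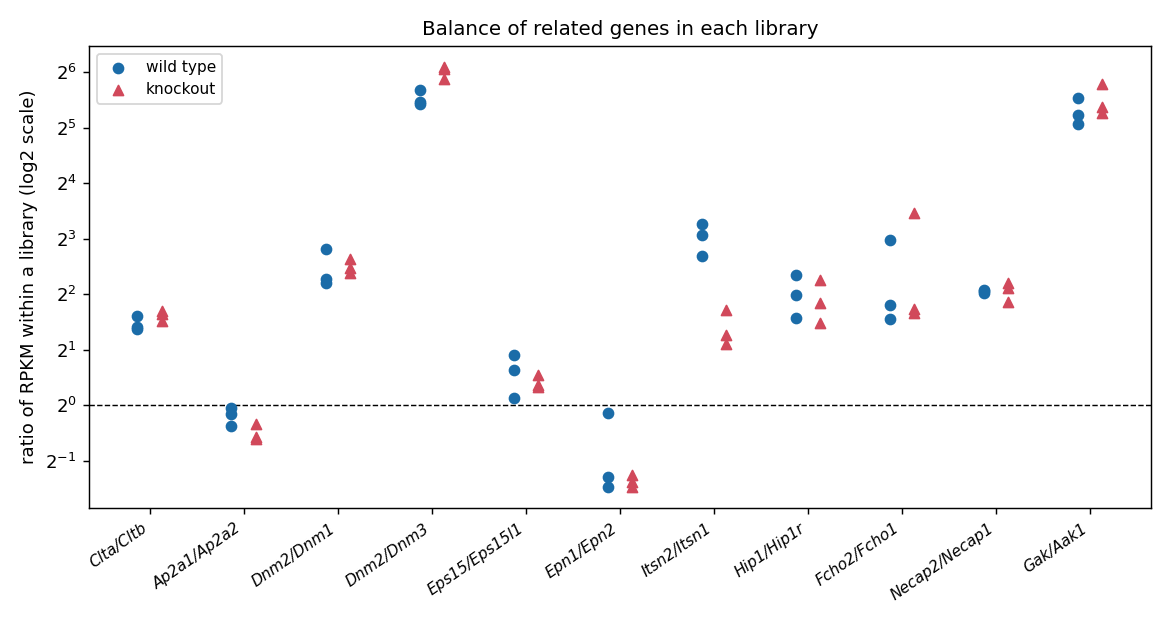
Ratio of RPKM within each library (log2 axis) for 11 pairs of related members, with 3 wild-type libraries as circles and 3 knockout libraries as triangles; the dashed line marks equal levels. The Itsn2/Itsn1 ratios are 6.47 to 9.59 in wild type and 2.15 to 3.26 in knockout, and most other pairs overlap.

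The sign of a member's difference went with the GC content of its transcript, as it did over all genes. Across the 32 members tested Spearman's rho between log2 fold change and GC content of the longest transcript was 0.39, and across 10940 genes 0.46. These points share the 6 libraries, and genes are not replicates. Of the 7 members under 45% GC (Cltc, Fcho2, Eps15, Picalm, Dnm3, Eea1 and Rabep1) 2 were positive, where 21.4% of all genes of that range were. Their median was -0.41, and that of all genes of that range -0.20. Of the 19 members at 50% GC or more 17 were positive, where 72.0% of all such genes were. Their median was 0.27, and that of all such genes 0.11. The 2 exceptions were Fcho1 and Epn1. After removal of the trends rho was 0.16 for members and -0.03 for all genes, and the members' median log2 fold change 0.12. Itsn1, at 50.8% GC, was then at 0.90 and Itsn2, at 47.6%, at -0.62, whereas Picalm, at 42.1%, was at -0.06. Whether composition is linked to genotype or to how the libraries were made cannot be told apart in this design.

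**Figure D4:**
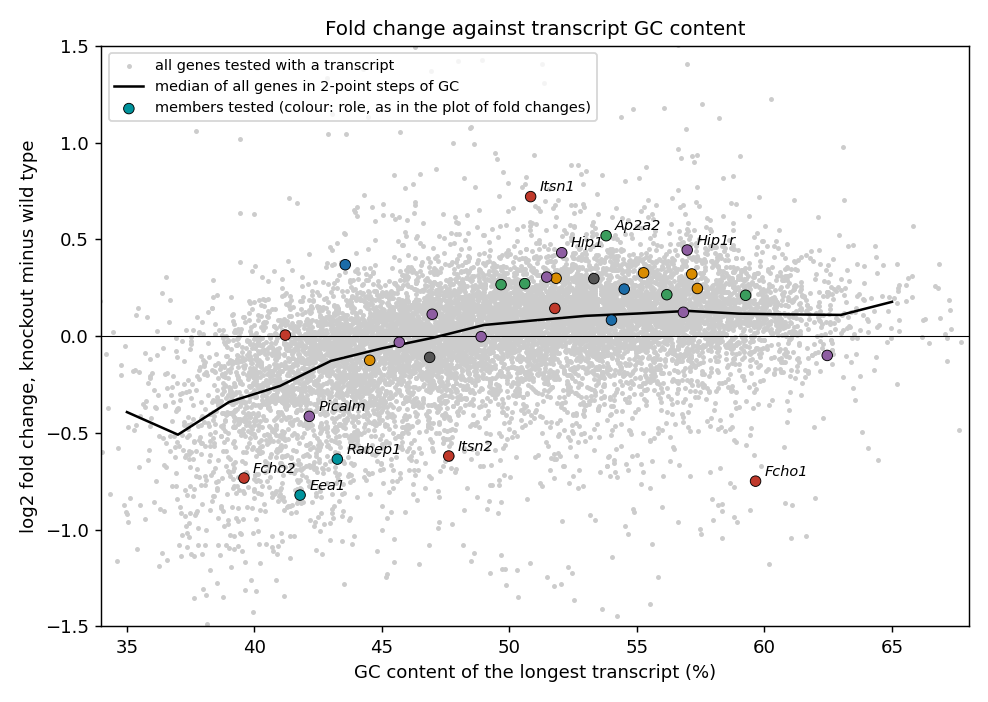
Log2 fold change (knockout minus wild type) against the GC content of the longest transcript for all genes tested (grey), their median in steps of GC content (line) and the 32 members tested (coloured by role). The median of all genes is below 0 under 45% GC and above it from 50%, and Fcho2, Eea1, Rabep1 and Picalm lie on the low-GC side.

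One wild-type library weighed on the members. WT 1 was the lowest of the wild-type libraries for 19 of 32 members, and for 39.05% of all genes tested. Its median deviation from the group mean was -0.13 on the log2 scale for members and -0.003 for all genes. Without WT 1 the members' median log2 fold change was 0.11. Cltc, Ap2a2, Ap2b1, Dnm2, Epn2, Gak, Hip1 and Itsn1 were among those lowest in WT 1. The reticular and the erythroid marker sums were highest there, at 303 and 127.5 RPKM. The part of those cells in these values was not tested.

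Beyond the members, 136 genes of 6 related lists were examined, of which 117 were tested: 2 were higher and 1 lower in knockout at an adjusted p under 0.05, where 1.94% of all genes were called. An unadjusted p under 0.05 was found for 21, where 15.7% of all genes had one, so both counts were near the background. The median log2 fold change was 0.08, with 0.03 for all genes. Hspa8, the Hsc70 chaperone that removes clathrin coats with Gak, rose from 33.2, 92.8 and 97.2 RPKM in wild type to 188, 205 and 203 in knockout, by 1.56 ± 0.33 on the log2 scale (SE; limma, adjusted p = 0.0488). WT 1 was far below the other wild-type libraries, and over the 17 alternatives the Hspa8 log2 fold change ran from 1.06 to 1.83. The call was lost in 9 of 17 alternatives, among them voom (adjusted p = 0.059) and leaving out KO 2, KO 3 or KO 4 (adjusted p = 0.118, 0.167 and 0.0847). Hspa8 is also a heat-shock family gene, and 13 of 16 dissociation response genes had positive log2 fold changes, with a median of 0.20, 0 called and sums of 6227 to 6942 RPKM in wild type and 6713 to 7890 in knockout. Their part in the Hspa8 difference was not tested. Cd2ap, a scaffold between endocytic proteins and actin, fell from 8.83, 7.27 and 9.21 RPKM to 4.16, 4.14 and 5.34, a log2 fold change of -0.83 ± 0.17 (SE; limma, adjusted p = 0.0377). With GC and length trends removed Cd2ap stood at -0.41 (adjusted p = 0.121), and its adjusted p was 0.118 with no filter on low values and 0.0636 with quantile normalization. Without WT 1, WT 4, KO 2 or KO 3 its log2 fold change was -0.79, -0.76, -0.77 and -0.77, with adjusted p of 0.0787, 0.157, 0.164 and 0.167.

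By list, 32 of 39 further coat, pit and scission genes were tested, with Cd2ap the 1 gene called and Dbnl, an actin-binding adaptor, next (0.35 ± 0.08 SE; limma, adjusted p = 0.0833). Of 14 uncoating and phosphoinositide genes 12 were tested and Hspa8 was called, with Synj2bp next by p (log2 fold change -0.35). Of 28 genes of the trans-Golgi and other adaptor complexes 26 were tested and 0 called, 7 had an unadjusted p under 0.05, and Ap5m1 (listed as Mudeng) and Ap3m2 had the smallest (-0.65 and 0.45). The 27 genes of early endosome machinery, apart from the tethers, gave 26 tested, 0 called and 3 at an unadjusted p under 0.05, with Appl1, a Rab5 effector, at -0.62 and Rab5c at 0.34. Of 20 cargo receptors 15 were tested, 1 was called and 12 had positive log2 fold changes, where 54.3% of all genes did. Flt1 (VEGF receptor 1) was at -0.43 (limma, adjusted p = 0.206), and was called in other settings, among them GC and length trends removed and WT 1 left out. Of 10 caveolar genes, which serve uptake without clathrin, 8 were tested, 0 called and 3 had an unadjusted p under 0.05. Cav2 was at 260.1, 169 and 261 RPKM in wild type and 129, 112.5 and 191 in knockout (log2 fold change -0.68; limma, adjusted p = 0.17), and Cavin2 (listed as Sdpr) had -0.46.

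Some members share exon sequence with genes on the other strand: 16.7% of the exon bases of Ap2a1 overlap Fuz, 12.5% of those of Hip1r overlap Vps37b, and 1488 of the 13579 exon bases of Itsn2 overlap Gm48678. The cDNA and library kits named in the labels do not mark strand, so reads of those stretches cannot be assigned to one gene.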

How the data were processed

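RNA-seq libraries were made with SMART-Seq v4 and Nextera XT, per the labels' protocols. Per the submitters' processing notes, the tools included STAR 2.5.2b and Subread, and the genome build was mm10. edgeR and limma are also listed there, with no settings. The authors deposited 1 table of values scaled to gene length and depth, taken as RPKM although its unit is not named, because each gene's values are whole multiples of a step per gene (whole reads for 17683 of 17683 genes above 0, within 0.001), and the implied gene lengths follow annotated lengths (Spearman 0.825 across genes). The authors' deposited comparison table gives log2 fold changes and p-values, per the file headers, and was used only where named.

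Columns name genotype and a number that the labels do not tie to a replicate, and columns were therefore mapped to genotypes, not to replicates. limma 3.58.1 in R 4.3.3, with an intensity trend, was fitted to log2(RPKM + 0.5) over 11035 genes that reached 1 RPKM in 3 or more libraries. Benjamini-Hochberg adjustment was over all of them, with a threshold of 0.05. The fit was also run on data simulated with independent noise per gene and no GC trend. That run does not cover trends or shifts that genes share, and no result here rests on it. Pairs of related genes were compared as log2 ratios of RPKM + 0.5, and coat chains and AP2 subunits as log2 ratios of RPKM. Both used exact two-sided permutation over the 6 libraries, and the ratios printed are of RPKM. GC content and length came from the longest GENCODE M21 transcript, and their trends were removed per library by loess (span 0.3). Coordinates and promoters came from RefSeq GRCm38.p6. Of 283 symbols in the lists 267 matched directly, 15 by an older symbol, and Hbb-bt did not match. Alternatives were 17: other pseudocounts, filters, normalizations and variances, library quality weights, voom on recovered reads, GC and length trends, a block on column number, and each library left out.

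The members and lists were chosen with earlier results of these data known. Values in every library are given for the 12 members of smallest p and the most abundant member of each role. Of other pathway genes, those called and up to 2 of smallest p per list are named, except 1 gene that is not reported here. Recovered reads of 40274424 to 51498038 a library leave counting error small for most members, with 108 reads the lowest count among them for a gene tested. No pair of libraries of a genotype agreed within read-sampling noise, so none was merged as a duplicate deposit, which does not show that they came from separate animals.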

Additional observations from a re-analysis of the deposited data

How the results depend on the processing

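Of the 35 genes followed over 17 alternatives, 26 kept the sign of their log2 fold change and 9 did not, and the members' median exceeded that of all genes in all 17. The alternatives reuse the same libraries and are not independent of one another. In the fit reported above 0 members were called. With library quality weights 19 members were called (14 higher, 5 lower) and 43 pathway genes against 3, while calls over all genes went from 214 to 3653, WT 4 and KO 2 having weights of 4.19 and 3.12 and WT 1 0.336. Voom on recovered reads and removal of GC and length trends each called 1 member (Eea1 and Itsn1), among 222 of 11035 and 228 of 10940 genes. Pathway calls were 0 with no filter on low values and 1 with quantile normalization. The replicate block used the column number, where numbers 3 and 4 are shared by both genotypes and nothing in the labels pairs them. Deviations correlated at 0.193 in each pair of the same number and at -0.162 to 0.0943 in pairs of unlike number. WT 1 and KO 2 share their number with no other library, so the block left the genotype difference to WT 3, WT 4, KO 3 and KO 4. With this block 2 members (Eea1, Rabep1), 5 pathway genes and 355 of all genes were called. The members' median was then 0.087, with Cltc at -0.051, Eps15 at -0.10, Epn1 at 0.084, Ap2a1 at 0.050 and Ap2b1 at 0.034. Leaving out each library gave 0 to 2 members called, 0 to 4 pathway genes and a median of 0.11 to 0.21. Over all genes calls were 77 with no filter and 56 to 418 with a library left out. The causes were not tested.

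Fcho1, at -0.75, turned to 0.020 with quality weights. Other signs that turned were, with quality weights, Eps15 (-0.14) and Epn1 (0.31), with voom Eps15 (-0.0014), with GC and length trends removed Cltb (-0.00050), Dab2 (0.023) and Dnm3 (0.044), with median centring Numb (0.0086), with quantile normalization Synj1 (0.0047), and with a pseudocount of 1 the log2 ratios of Hip1 to Hip1r (0.038) and Fcho2 to Fcho1 (-0.070). With a library left out, Cltb ran from -0.034 to 0.15, Cltc from -0.048 to 0.66, Eps15 from -0.16 to 0.12, Epn1 from -0.32 to 0.13, Dab2 from -0.11 to 0.032, Numb from -0.082 to 0.069 and Synj1 from -0.28 to 0.076. The log2 ratio differences ran from -0.038 to 0.27 for Dnm2 to Dnm1, -0.35 to 0.031 for Eps15 to Eps15l1, -0.21 to 0.15 for Hip1 to Hip1r, -0.44 to 0.36 for Fcho2 to Fcho1 and -0.057 to 0.10 for Necap2 to Necap1. That of Itsn2 to Itsn1 stayed between -1.57 and -1.15 in all alternatives run, each with a pseudocount added.

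Limits: 3 libraries a group, no record of animals per library, a paired reading of column numbers that the labels do not support, and mean levels under 3 RPKM for Fcho1, Synj1, Hip1r, Dnm3, Itsn1 and Aak1.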
